A study of Saccharomyces cerevisiae with 10 samples.

Results

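Variation between yeast cultures was described from the part of it that appeared in both sorted fractions of the same culture code. The code is what follows the letter H or L in a library's label, and each of the 5 codes (1_2609, 2_2609, 1_2709, 2_2709 and _2909) named 1 high and 1 low library, which gave 5 pairs out of all 10 libraries of the series. For every gene, the log2 CPM (normalized counts scaled to library size) of a library was taken minus the mean of the 5 libraries of its own fraction. This difference is termed the deviation, and it holds nothing of the average difference between low and high. Of 7252 genes in the table, 6374 had enough counts to be tested and 4157 had a mean of at least 30 CPM in both fractions. These 4157 genes are termed kept. The genes nearest to this limit were HEM13, at 30.01 CPM in its lower fraction and kept, and MPS3, at 29.99 CPM and not kept.

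The cells were a prototrophic version of the haploid laboratory strain BY4741 that carried sfGFP under the RPL28 promoter (pRPL28), so that fluorescence followed the promoter of a ribosomal protein gene. They were grown in rich medium (YPD) for 4 h, washed, and held for 1 h in medium with 0.8 mM proline as nitrogen source, and all 10 libraries shared this strain and treatment. Sorting on fluorescence and side scatter, with doublets and budding cells gated out, gave the high fraction (5 libraries) and the low fraction (5 libraries), whose polyadenylated RNA was sequenced. BY4741 lacks HIS3, LEU2, MET15 (named MET17 in the tables) and URA3 function, and the prototrophic strain carries added copies, either on a minichromosome or in the genome. Which of these versions was sorted is not given in the sources used here. The labels call the libraries of a fraction biological replicates. They do not explain the codes and do not say that libraries of 1 code came from 1 culture, so the word culture rests on the shared code.

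The libraries held 15879779 to 27752702 counts. Haploid a-cell genes were present, with summed levels of 392 to 1564 CPM, whereas the α-cell and diploid markers summed to 51.1 to 147 CPM. Most of the latter sum came from the α-cell marker SAG1, at 41.8 to 107 CPM. In the high libraries of both codes ending in _2609, SAG1 exceeded every a-cell gene of the set but STE2. Daughter separation genes summed to 484 to 815 CPM in high and 1470 to 2535 CPM in low, and G2/M genes to 541 to 822 CPM in high and 73.0 to 138 CPM in low, so the 2 fractions did not overlap for either sum. CTS1 was the largest part of the first sum in every library, but made up most of it only in low. EGT2 of the same set ran the other way (110 to 276 CPM in high and 48.2 to 84.1 CPM in low). SCW11 overlapped between the fractions (39.7 to 60.6 CPM in high and 40.4 to 112 CPM in low). The low library of 1_2709 stood apart, with 1552 genes at 0 counts against 983 to 1249 in the other low libraries. The SD of its deviations was 0.532, against 0.182 to 0.427 in all others. High libraries had only 383 to 511 genes at 0 counts. Genes with 1 to 9 counts numbered 28 to 47 in low and 275 to 345 in high, so the fractions differed in this as a whole. The low libraries of 1_2709 and 2_2609 are those that the paper left out of its comparison of low with high. Results were therefore also computed without both of these codes.

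On a poor nitrogen source such as proline, yeast relieves nitrogen catabolite repression, in which the GATA factors Gln3 and Gat1 activate genes for uptake and breakdown of secondary nitrogen sources and Dal80 and Gzf3 oppose them. Shortage of amino acids raises Gcn4, the activator of most amino acid biosynthesis genes, while Leu3 activates genes of leucine and branched-chain amino acid synthesis. Genes of ribosomal proteins and of ribosome assembly are transcribed in step with growth, and genes of glycolysis and gluconeogenesis respond to carbon supply.

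High and low libraries of the same code deviated together in 3 codes and scarcely in the other 2. Across the 4157 kept genes, Pearson's r between the matched deviations was 0.616 for 2_2609, 0.400 for _2909 and 0.395 for 1_2609, but 0.107 for 1_2709 and 0.032 for 2_2709. The mean over the 5 codes was 0.310 (SD 0.239, n = 5). The 20 pairings of a high with a low library of different code gave r of -0.42 to 0.25 with a mean of -0.08, and 6 of them were above 0. Within a fraction the deviations of a gene sum to 0, so pairings of different codes lie below 0 on average. Genes are not independent replicates, and no p was computed for these correlations. The own code was the best match for 3 of 5 high and for 4 of 5 low libraries. Deviations had the same sign in both libraries for 70.8% of kept genes in 2_2609, 62.6% in 1_2609, 59.6% in _2909, 54.0% in 1_2709 and 50.8% in 2_2709. In all 5 codes at once, 351 kept genes (8.44%) had matching signs, against 56 genes with matching signs in 0 codes. Signs matched in 1 code for 332 genes, in 2 for 1001, in 3 for 1383 and in 4 for 1034. The component shared within a code made up 30.7% of the variance of the deviations. Without 2_2609 and 1_2709 the mean r over the remaining 3 codes was 0.293.

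**Figure D1:**
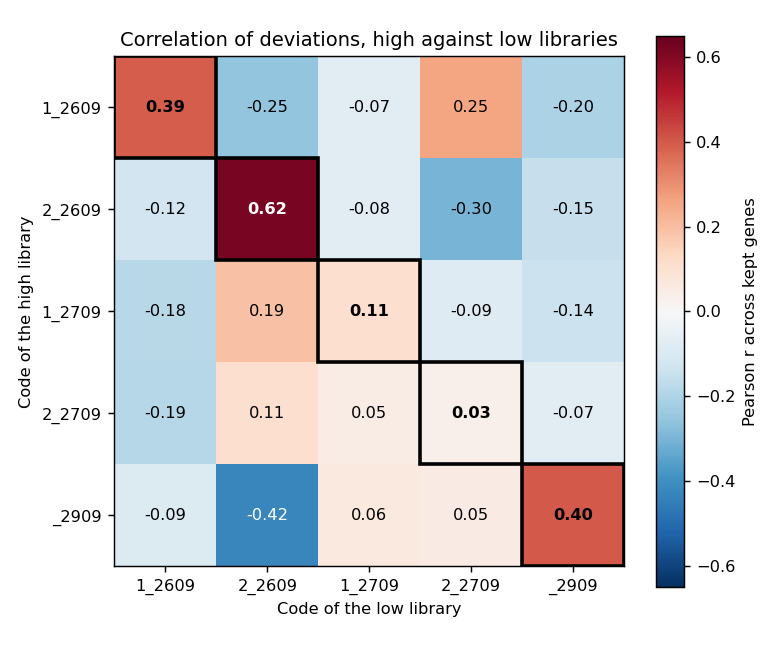
Pearson's r across 4157 kept genes between the deviations of each high library (rows, by code) and each low library (columns, by code), with boxes around pairs of the same code. The boxed values run from 0.03 for 2_2709 to 0.62 for 2_2609, and the values outside the boxes from -0.42 to 0.25.

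In a model with fraction and code, 42 of 6374 genes differed between codes (0.659%; edgeR's quasi-likelihood test, 4 degrees of freedom for code, Benjamini-Hochberg adjusted p below 0.05, termed called). Of these, 40 were kept genes, and 36 of the 40 had at least 30 CPM in all 10 libraries. The 40 were sorted by the code where the mean of the high and the low deviation was largest in size. By this, 27 were higher and 2 lower in _2909, 6 were lower in 2_2609, and 4 were higher and 1 lower in 2_2709. The matched deviations of the 40 had the same sign in all 5 codes for 19 genes, in 4 codes for 16 and in 3 codes for 5. The test takes its error from the disagreement of high and low libraries within codes. It thus favours genes whose matched libraries agree, and these signs are no separate result. The number of calls rested on single codes. It was 80 without 1_2709, 16 without 2_2709, 4 without _2909, 2 without 1_2609 and 0 without 2_2609, where 416 genes had an unadjusted p below 0.05, and 22 without both 2_2609 and 1_2709. At an unadjusted p below 0.05 the 10 libraries gave 732 genes, and other tools called 475 (DESeq2), 260 (limma-voom) and 0 (limma on log2 FPKM, with 631 genes at an unadjusted p below 0.05).

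Code _2909 had the most genes called against the other 4 codes, although at an unadjusted p below 0.05 it had 656 genes, fewer than 2_2609 (912) and 1_2609 (675). Against the mean of the other codes, 92 of 6374 genes were called higher in _2909 (1.44%) and 12 lower (0.188%), and of the kept genes 90 were higher and 10 lower. All 100 deviated in the same direction in the high and the low library, which is no separate result, since the test favours genes whose matched libraries agree. The log2 differences ran from 0.72 to 2.42 for the higher genes and from -2.24 to -0.61 for the lower genes. All 90 would also have been kept by the mean over the other 4 codes. The count of 104 genes fell to 54 without 1_2609 and to 56 without 2_2609, of which 53 and 54 were among the 104, and was 58 without both 2_2609 and 1_2709, of which 56 were. In each of these fits all 104 kept their direction. Since _2909 is the only code with this ending of the name, what the code and what the ending carried cannot be told apart.

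**Figure D2:**
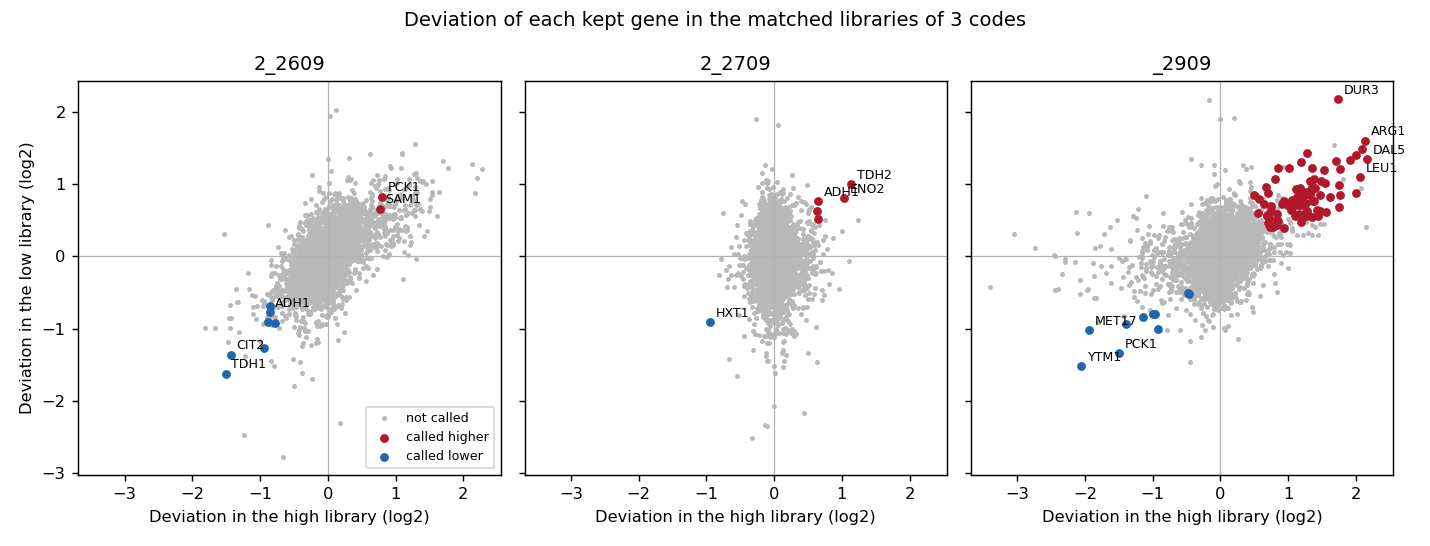
Deviation of each of 4157 kept genes in the high library (x axis, log2) and in the low library (y axis, log2) of codes 2_2609, 2_2709 and _2909, with genes called higher in red, called lower in blue and the rest in grey. The 90 red genes of _2909 all lie above 0 on both axes and its 10 blue genes below 0 on both, whereas the other panels hold 9 and 6 called genes. The test favours genes whose matched libraries agree, so the shared direction of called genes is no separate result.

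The higher genes of _2909 included genes of the pathway for secondary nitrogen sources. The list for nitrogen source uptake, use and control by GATA factors held 42 genes, of which 39 were kept. Of these, 11 were called higher in _2909 and none lower, against 2.17% of all kept genes called higher and 0.241% lower. In 34 of the 39 both libraries were above their fraction's mean, and the median deviation was 0.86 in the high and 0.47 in the low library, against -0.01 and 0.01 over all kept genes. DAL5, the allantoate permease (YJR152W, chromosome X, 719666 to 721297), had 118, 189, 319.8, 409.9 and 1526 CPM in the high libraries of 1_2609, 2_2609, 1_2709, 2_2709 and _2909. Its low libraries had 236, 237, 665, 328 and 1065 CPM in the same order of codes, which is the order of every series of 5 values that follows. The library of _2909 was the highest in both fractions, and the log2 difference from the other codes was 2.22 (SE 0.26, adjusted p = 0.00508). DUR3, the urea and polyamine transporter (YHL016C, chromosome VIII, 72037 to 74244), had 58.0, 65.7, 64.01, 56.2 and 276 CPM in high and 61.0, 94.2, 175, 36.2 and 513 CPM in low. Its 4 other high libraries lay between 56.2 and 65.7 CPM, and its log2 difference of 2.42 (SE 0.28, adjusted p = 0.00508) was the largest among the kept genes called in _2909.

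The upstream regions of these 2 genes are shown because they hold GATAAG, the core of the site bound by GATA factors. The window of 300 bases runs from 400 to 101 bases before the start codon, was read from the R64 genome and is written on the coding strand with GATAAG, or its complement CTTATC, in capitals. The DAL5 window (chrX:719266-719565, plus strand) and the DUR3 window (chrVIII:74345-74644, minus strand) read:
DAL5: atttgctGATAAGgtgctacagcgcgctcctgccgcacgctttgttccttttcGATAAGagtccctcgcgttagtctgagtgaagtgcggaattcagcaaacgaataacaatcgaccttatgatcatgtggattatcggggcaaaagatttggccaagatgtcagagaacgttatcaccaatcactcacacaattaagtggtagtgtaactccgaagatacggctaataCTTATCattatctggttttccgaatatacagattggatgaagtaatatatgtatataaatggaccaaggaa
DUR3: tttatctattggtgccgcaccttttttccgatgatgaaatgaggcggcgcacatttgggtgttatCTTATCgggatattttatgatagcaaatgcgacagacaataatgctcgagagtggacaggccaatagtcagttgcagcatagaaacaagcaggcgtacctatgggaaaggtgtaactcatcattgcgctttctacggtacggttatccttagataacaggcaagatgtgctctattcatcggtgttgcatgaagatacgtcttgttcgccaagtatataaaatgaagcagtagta
GATAAG was searched on both strands and occurred 3 times in the DAL5 window and once in that of DUR3. It was present in 26 of the 39 kept nitrogen genes (66.7%), in 32 of the 88 kept genes higher in _2909 that have such a window (36.4%) and in 13.97% of all 6007 coding genes. The nitrogen list includes GATA factors and genes under their control, so its share follows in part from how it was chosen. A match describes the letters and does not show that a factor bound there.

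The other called nitrogen genes included more of the allantoin and urea pathway. DAL4, the allantoin permease, had 105, 209, 154, 182 and 692 CPM in high and 121, 189.8, 241, 126 and 509 CPM in low, a log2 difference of 1.89 (SE 0.19, adjusted p = 0.00434). DAL2, allantoicase, had 60.0, 126, 69.3, 68.6 and 260.2 CPM in high and 113, 160.4, 123, 77.0 and 260.5 CPM in low (log2 1.48, SE 0.18, adjusted p = 0.00569). Both neighbouring genes on chromosome IX exceeded every other library of their fraction in the _2909 libraries. DUR1,2, urea amidolyase, differed by 2.03 on the log2 scale, DAL3, ureidoglycolate lyase, by 1.36, and DAL80, the GATA repressor, by 1.25. GLN1, glutamine synthetase, differed by 1.15 and UGA3, the activator of GABA use, by 1.34. YHI9 of the same list had 173, 214, 476, 619 and 1499 CPM in high and 214, 226, 449.6, 440.2 and 655 CPM in low (log2 1.70, SE 0.22, adjusted p = 0.0071).

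Genes for proline itself were less uniform. PUT1, proline oxidase (YLR142W, chromosome XII, 425186 to 426616), had 373, 439, 403, 751 and 1247 CPM in high and 524, 569, 769, 833 and 1476 CPM in low, and was higher in _2909 by 1.28 on the log2 scale (SE 0.14, adjusted p = 0.00463). PUT2, the next enzyme of proline breakdown, did not pass the test (log2 0.94, SE 0.21, adjusted p = 0.0761). PUT4, the proline permease, had 1463 CPM in high and 1662 CPM in low in _2909, within the range of the other codes in both fractions (log2 0.06, SE 0.25, adjusted p = 0.969). The general amino acid permease GAP1 (log2 0.67, SE 0.26, adjusted p = 0.404) and the ammonium permease MEP2 (log2 1.30, SE 0.31, adjusted p = 0.0878) did not pass either. In code 1_2609 the list lay at the other end, with 29 of 39 genes below their fraction's mean in both libraries and a median of -0.58 in high and -0.15 in low, but none of its genes was called in that code.

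Amino acid biosynthesis genes formed the larger group of calls in _2909. Of 60 listed genes 52 were kept, and 24 of these were called higher and none lower, where 2.17% of all kept genes were called higher in _2909. In 45 both libraries were above their fraction's mean, with a median of 0.89 in high and 0.51 in low. ARG1, argininosuccinate synthetase (YOL058W, chromosome XV, 219211 to 220473), had 111, 93.8, 358, 711 and 1449.9 CPM in high and 112, 132, 418, 251 and 793 CPM in low. Both _2909 libraries were the highest of their fraction, and both codes ending in _2609 the lowest (log2 2.31, SE 0.29, adjusted p = 0.00569). Without 1_2609 its adjusted p was 0.0508. SNZ1, which acts in vitamin B6 synthesis and stood in this list (YMR096W, chromosome XIII, 458408 to 459301), had 68.7, 81.5, 99.4, 108 and 543 CPM in high and 57.2, 69.6, 87.9, 128 and 295 CPM in low. No other library exceeded 128 CPM, and the log2 difference was 2.26 (SE 0.17, adjusted p = 0.00217).

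The windows of ARG1 and SNZ1 are shown because both hold TGACTC, the core of the Gcn4 site, more than once. They cover the same 300 bases relative to the start codon as above, with TGACTC or its complement GAGTCA in capitals. The ARG1 window is chrXV:218811-219110 and the SNZ1 window chrXIII:458008-458307, both on the plus strand of R64:
ARG1: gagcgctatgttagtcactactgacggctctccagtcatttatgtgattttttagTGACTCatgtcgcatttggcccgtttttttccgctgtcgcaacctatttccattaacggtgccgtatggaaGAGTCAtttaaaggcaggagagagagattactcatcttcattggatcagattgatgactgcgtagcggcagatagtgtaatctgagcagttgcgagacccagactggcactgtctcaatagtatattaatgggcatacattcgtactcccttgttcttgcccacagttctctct
SNZ1: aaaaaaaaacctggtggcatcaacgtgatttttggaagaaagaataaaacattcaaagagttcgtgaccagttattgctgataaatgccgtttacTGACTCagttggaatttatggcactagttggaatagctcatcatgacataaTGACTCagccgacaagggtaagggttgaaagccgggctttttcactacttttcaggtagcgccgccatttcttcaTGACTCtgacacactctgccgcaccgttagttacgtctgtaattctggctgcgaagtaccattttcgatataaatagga
TGACTC, searched on both strands, occurred 2 times in the ARG1 window and 3 times in that of SNZ1. It was present in 37 of the 52 kept amino acid genes (71.2%), in 41 of 88 kept genes higher in _2909 (46.6%) and in 8.47% of all 6007 coding genes. The amino acid list includes GCN4 and SNZ1, and Gcn4 activates most genes of its kind, so its share follows in part from how it was chosen. The windows of DAL5 and DUR3 held no TGACTC and those of ARG1 and SNZ1 no GATAAG. The longer Gcn4 site, which overlaps TGACTC, was present in 57.7% of the kept amino acid genes and 2.90% of all. For 5 other motifs the shares of the 88 windows lay nearer to those of all windows or below them. CACGTG was present in 6.82% of the 88 windows and 4.54% of all. For CACGTGA, which extends it, these shares were 4.55% and 3.40%. AGGGG, the stress response element, was present in 14.8% and 23.6%, TTCNNGAA, a heat shock element, in 9.09% and 13.8%, and the iron-regulon letters TGCACCC in 1.14% and 1.45%.

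The list held 9 kept LEU, ILV and BAT genes of branched-chain amino acid synthesis, a subset picked after its values were seen, of which 5 were called higher in _2909 and 4 were not. LEU1, isopropylmalate isomerase (YGL009C, chromosome VII, 476313 to 478652), had 723, 746, 894, 1134 and 5162 CPM in high and 696, 789, 1055, 988 and 2248 CPM in low, a log2 difference of 2.05 (SE 0.21, adjusted p = 0.00434). BAT1, the mitochondrial branched-chain aminotransferase, had 173, 227, 255.1, 320.0 and 1081 CPM in high and 203, 245, 190.4, 252 and 519 CPM in low (log2 1.75, SE 0.20, adjusted p = 0.00508). In both genes the _2909 libraries exceeded all others of their fraction, and the high library more so than the low. OAC1, a mitochondrial oxaloacetate carrier, differed by 1.87, ILV3 by 1.41 and ILV5 by 1.35 on the log2 scale, and all passed the test. TMT1, a methyltransferase acting on trans-aconitate and on isopropylmalate, had 119.9, 62.7, 152, 185 and 689 CPM in high and 65.8, 53.9, 56.0, 104 and 226 CPM in low (log2 2.14, SE 0.21, adjusted p = 0.00434). LEU4, the first enzyme of leucine synthesis, was higher by 0.81, while ILV2 did not pass (log2 0.80, SE 0.20, adjusted p = 0.121). Nor did ILV1 (log2 0.67, adjusted p = 0.178), ILV6 (0.61, adjusted p = 0.0671) and BAT2 (0.41, adjusted p = 0.251). LEU2 of the same pathway, a marker gene of this strain and not in the list, was called lower.

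Lysine, histidine and aromatic amino acid genes were included. LYS2, aminoadipate reductase, had 147, 142, 178, 183 and 509.8 CPM in high and 139, 143, 164, 118 and 347 CPM in low, with a log2 difference of 1.49 (SE 0.15, adjusted p = 0.00434). HIS1, the first enzyme of histidine synthesis, had 173, 138, 183, 211 and 393 CPM in high and 226, 159, 223, 189 and 384 CPM in low (log2 1.07, SE 0.13, adjusted p = 0.00569, and 0.0542 without both 2_2609 and 1_2709). ARO8, an aromatic aminotransferase, had 375, 446, 689, 757 and 1495 CPM in high and 349, 385, 462, 488 and 782 CPM in low (log2 1.19, SE 0.15, adjusted p = 0.0058). In each of the 3 genes both _2909 libraries were above every other library of their fraction. GCN4 itself, whose product is controlled mainly at translation, had 579 CPM in high and 571 CPM in low in _2909 and did not pass (log2 0.34, SE 0.11, adjusted p = 0.272).

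Of the 90 higher genes 35 belonged to the nitrogen and amino acid lists and 55 to neither. SRY1, which breaks down 3-hydroxyaspartate, had 166, 147, 216, 239 and 508 CPM in high and 92.3, 96.8, 160.3, 124 and 254 CPM in low (log2 1.29, SE 0.14, adjusted p = 0.00452). DIP5, the dicarboxylic amino acid permease, was higher by 1.61 (SE 0.19, adjusted p = 0.00535), BAP2, a permease for branched-chain amino acids, by 1.21, and AMD2, a putative amidase, by 1.71. The asparaginase gene ASP3-3 was higher by 1.27 and ASP3-4 by 1.31, but these copies are near-identical in sequence, so the split of reads between them is uncertain. CIT2, the peroxisomal citrate synthase, was higher by 1.19 in _2909 (SE 0.20, adjusted p = 0.0234).

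Code _2909 also differed in RNAs unrelated to nitrogen. Of 34 listed non-coding RNAs only 6 were kept, and all 6 were above their fraction's mean in both _2909 libraries, with a median of 1.69 in high and 0.76 in low. The same 6 were below it in both 2_2609 libraries, with medians of -0.98 and -1.40. These RNAs mostly lack poly(A) tails, and the libraries were made from polyadenylated RNA. The U1 RNA snR19 had 32.0, 22.3, 104, 62.9 and 181 CPM in high and 295, 315, 1708, 641 and 966 CPM in low, was called for code (adjusted p = 0.0355) and was higher in _2909 by 1.42 (SE 0.24, adjusted p = 0.0234). The list of mating genes of a cells had a median deviation of 0.57 in high and 0.32 in low in _2909 (16 kept genes, 12 above in both), where only MFA2, a short a-factor gene, was called (log2 1.31, SE 0.26, adjusted p = 0.0432). Spearman's rho between deviation and gene length was -0.03 in the high and 0.12 in the low library of _2909, against -0.19 to 0.16 in the other libraries. The part of RNA preparation in the differences of _2909 was not tested.

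**Figure D3:**
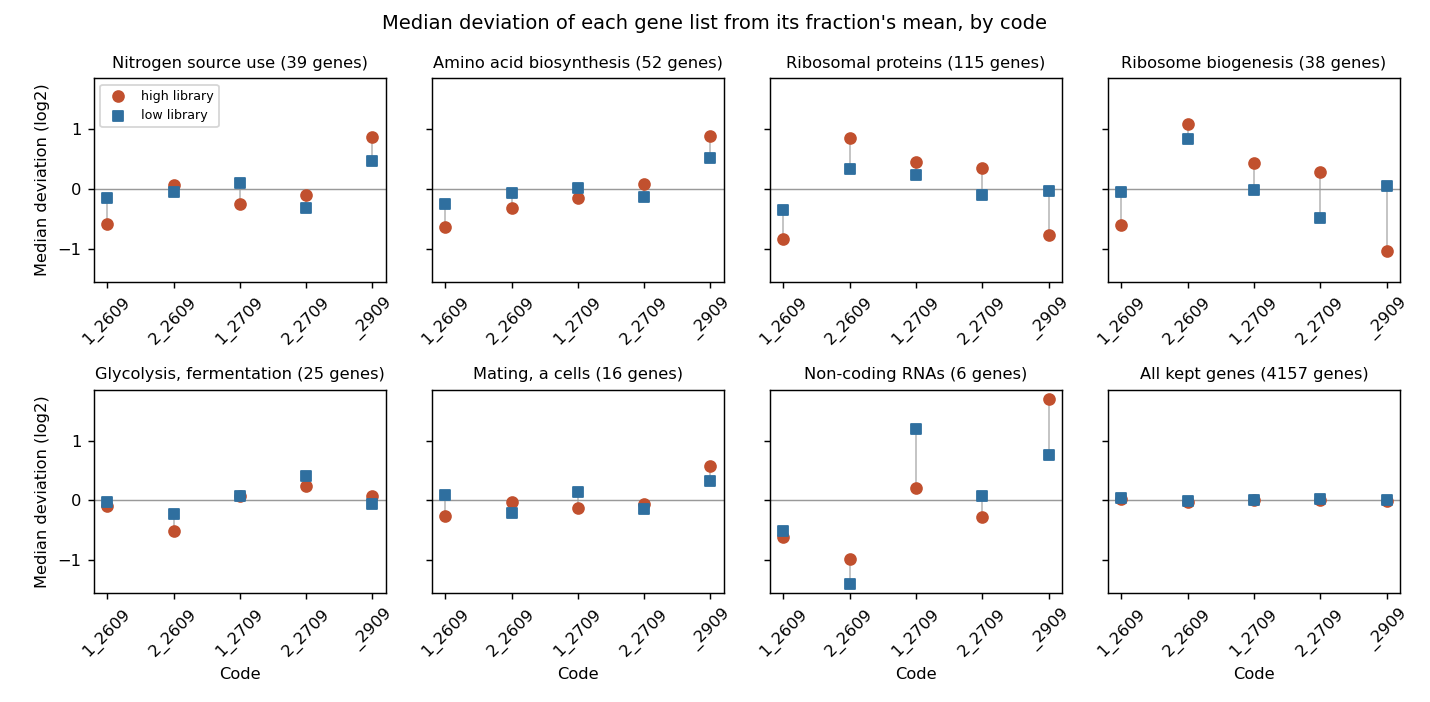
Median deviation (log2) of 7 gene lists and of all kept genes in the high (circles) and low (squares) library of each code, joined by a line. Both nitrogen and amino acid lists peak in _2909, ribosomal protein and ribosome biogenesis lists in 2_2609, and the medians of all kept genes lie within 0.04 of 0.

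Among the 10 kept genes lower in _2909 was PCK1, phosphoenolpyruvate carboxykinase of gluconeogenesis (YKR097W, chromosome XI, 631152 to 632801), which had the lowest p for code of all genes (2.69e-06, adjusted p = 0.0115). It had 1528, 1289, 586, 735 and 262 CPM in high and 1037, 964, 530.4, 418 and 216 CPM in low. Both fractions thus had the highest levels in the codes ending in _2609, lower levels in those ending in _2709 and the lowest in _2909, and the matched deviations shared their sign in all 5 codes. PCK1 was lower in _2909 than in the other codes (log2 -1.77, SE 0.16, adjusted p = 0.00419), higher in 1_2609 (log2 1.23, SE 0.13, adjusted p = 0.0317) and higher in 2_2609 (log2 1.01, SE 0.13, adjusted p = 0.0443). These contrasts share libraries, and without _2909 the adjusted p was 0.127 for 1_2609 and 0.148 for 2_2609. PCK1 was the only gene called in 1_2609, where 0.0157% of all genes tested were called higher and 0% lower, and 675 had an unadjusted p below 0.05.

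Of the marker genes that restore growth without supplements, MET17 and LEU2 were called lower in _2909, and HIS3 and URA3 were not. MET17, the homocysteine synthase gene (YLR303W, chromosome XII, 732542 to 733876, overlapping YLR302C), had 585, 800.3, 539.5, 460.3 and 109.5 CPM in high and 685, 748, 481, 369.8 and 227 CPM in low (log2 -1.78, SE 0.26, adjusted p = 0.0112). LEU2, isopropylmalate dehydrogenase, had 323, 1076, 677, 746 and 194 CPM in high and 624, 904, 628, 792 and 323 CPM in low (log2 -1.46, SE 0.25, adjusted p = 0.0234). HIS3 had 615, 747, 577, 629 and 392 CPM in high and 474, 519, 402, 341 and 287 CPM in low and did not pass (log2 -0.64, SE 0.13, adjusted p = 0.0516). In all 3 genes both _2909 libraries were the lowest of their fraction and both 2_2609 libraries the highest. Their list, which includes sfGFP, held 4 kept genes, with medians of -1.27 in high and -0.70 in low in _2909. In 2_2609 its medians were 1.01 and 0.60, and all 4 were above their fraction's mean in both libraries, but none was called there. The call of LEU2 was lost without 2_2609 (adjusted p = 0.0624) or without 2_2709 (0.0566), and that of MET17 without both 2_2609 and 1_2709 (0.0511). URA3, whose mean in low was below 30 CPM, had 35.1 to 60.7 CPM in high and 9.59 to 41.7 CPM in low, with 46.9 and 41.7 CPM in _2909.

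**Figure D4:**
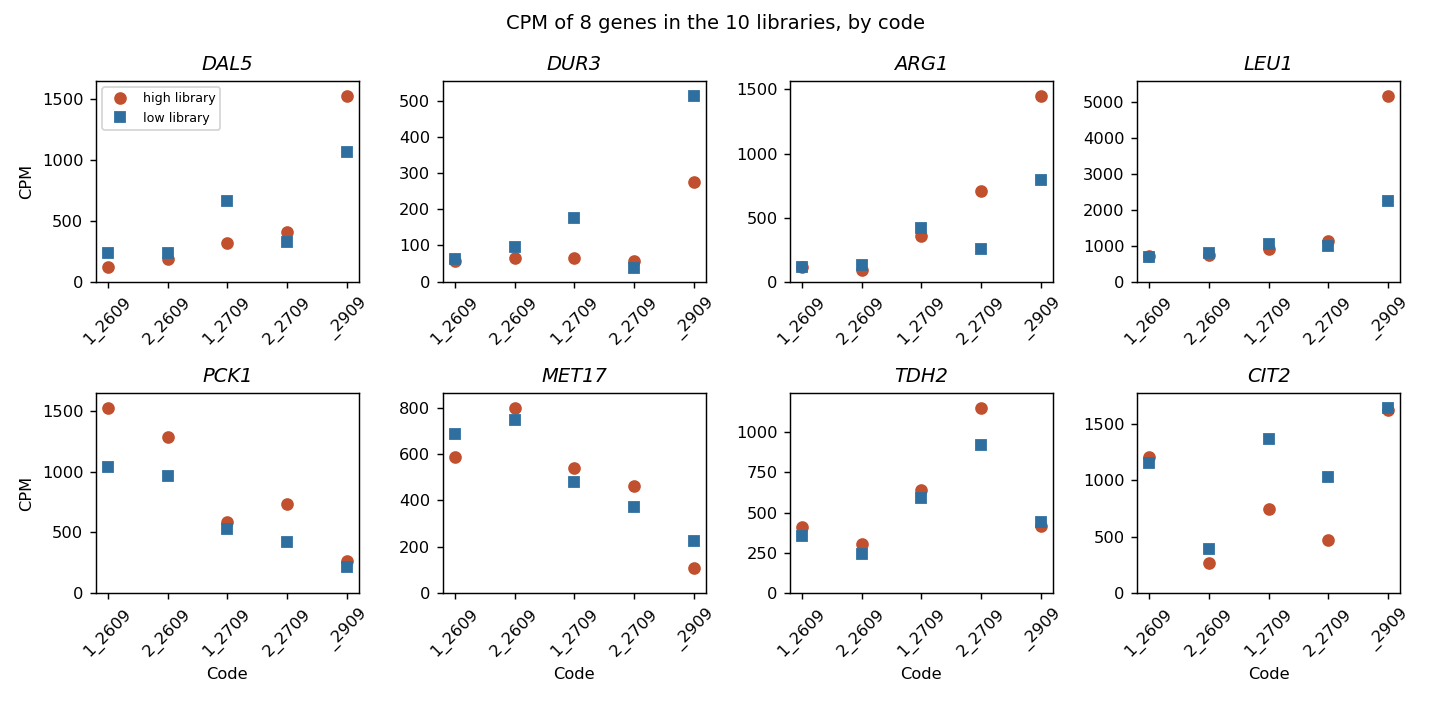
CPM of 8 genes in the high (circles) and low (squares) libraries of the 5 codes, each panel with a linear axis from 0. DAL5, DUR3, ARG1 and LEU1 are highest in _2909, PCK1 and MET17 lowest in _2909, TDH2 highest in 2_2709 and CIT2 lowest in 2_2609, in both fractions.

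For the ribosome, 1 of 115 kept ribosomal protein genes (0.87%) and none of 38 kept ribosome biogenesis genes were called for code, against 0.962% of all kept genes, and the medians of both lists are given as a description. Of 138 ribosomal protein genes listed, 115 were kept. Their median deviation was 0.84 in high and 0.33 in low in 2_2609 (102 of 115 above in both) and -0.85 and -0.36 in 1_2609 (98 below in both). In _2909 it was -0.78 in high and -0.04 in low. Ribosome biogenesis genes (99 listed, 38 kept) had medians of 1.09 in high and 0.83 in low in 2_2609, where 35 were above in both libraries and none below. In _2909 they had -1.03 in high and 0.05 in low, so that this deviation appeared in the high library alone. The nucleolar protein gene NSR1 had 13.7, 135, 70.7, 49.9 and 3.56 CPM in high and 61.4, 179, 95.8, 67.1 and 120.2 CPM in low (2_2609, log2 1.73, SE 0.66, adjusted p = 0.277).

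Only RPL20B of the ribosomal proteins was called for code, with 46.0, 179, 139.5, 121 and 45.7 CPM in high and 73.5, 188, 195, 120.0 and 67.5 CPM in low. It was lower in _2909 (log2 -1.12, SE 0.19, adjusted p = 0.0234, and 0.145 without 2_2609). Reads shared with its paralog RPL20A make its level uncertain. YTM1, a ribosome assembly factor, had 19.5, 54.5, 52.1, 38.6 and 6.38 CPM in high and 42.6, 44.3, 70.2, 36.5 and 12.6 CPM in low and was lower in _2909 (log2 -2.24, SE 0.38, adjusted p = 0.0234, and 0.0515 without 2_2609).

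Code 2_2609 had the closest match of its 2 libraries but few calls. Of 6374 genes 3 were called higher (0.0471%) and 7 lower (0.11%), of which 2 and 7 were kept, and 912 had an unadjusted p below 0.05. With the test restricted to genes of at least 30 CPM in both fractions, 66 were called, 33 in each direction, and without 2_2709 none was, with 872 at an unadjusted p below 0.05. The lower genes were led by central carbon metabolism. TDH1, a glyceraldehyde-3-phosphate dehydrogenase isoform (YJL052W, chromosome X, 338271 to 339269), had 1033, 198, 542, 640.4 and 783 CPM in high and 275, 76.4, 358, 411 and 234 CPM in low (log2 -1.98, SE 0.29, adjusted p = 0.0443). CIT2 (YCR005C, chromosome III, 120946 to 122328) had 1201, 263, 745, 471 and 1621 CPM in high and 1149, 393, 1359.9, 1026 and 1642 CPM in low (log2 -1.77, SE 0.25, adjusted p = 0.0443). In both genes the 2_2609 library was the lowest of its fraction.

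ADH1, the main alcohol dehydrogenase of fermentation, was lower in 2_2609 as well, with 4168, 2266, 4716, 6468 and 4054 CPM in high and 3908, 2327, 4484, 6752 and 3609.6 CPM in low (log2 -1.02, SE 0.10, adjusted p = 0.0238). PCL5, a cyclin that promotes breakdown of Gcn4, was lower by 0.96 on the log2 scale in 2_2609 (adjusted p = 0.0443) and higher by 0.78 in _2909 (adjusted p = 0.0155), in contrasts that share libraries. The dubious reading frame YDR133C was lower in 2_2609 too (log2 -1.38, SE 0.18, adjusted p = 0.0443), but it overlaps the cell wall gene CCW22, and whether counting used strand is not stated. SAM1, S-adenosylmethionine synthetase, was higher in 2_2609, with 761, 1292, 731, 606 and 572 CPM in high and 1144, 1565, 764, 747 and 923 CPM in low (log2 0.89, SE 0.13, adjusted p = 0.0443). The calls of TDH1, CIT2, SAM1 and YDR133C were lost without _2909 (adjusted p = 0.0504 for all 4) and, with that of ADH1, without 2_2709 (0.0751 to 0.109).

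The sfGFP transcript had 105, 339.9, 209, 171 and 69.8 CPM in high and 121, 291, 188, 158 and 203 CPM in low. Its 2_2609 library was the highest in both fractions, but the difference did not pass the test (log2 1.10, SE 0.28, adjusted p = 0.136). The median of 55 kept genes of stress response and trehalose was -0.43 in high and -0.32 in low in 2_2609, and 46 of them were below their fraction's mean in both libraries. None of these 55 was called for code.

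The genes called in code 2_2709 were mainly glycolytic, although its 2 libraries did not match over all genes. Here 5 of 6374 genes were called higher (0.0784%) and 1 lower (0.0157%), all of them kept, and all 5 higher genes were among the 25 genes listed for glycolysis, fermentation and gluconeogenesis. TDH2, a further glyceraldehyde-3-phosphate dehydrogenase isoform (YJR009C, chromosome X, 453683 to 454681), had 413, 306, 641, 1153 and 419 CPM in high and 356, 244, 593, 922 and 439.5 CPM in low (log2 1.34, SE 0.11, adjusted p = 0.00415). ENO2, the main enolase of growth on glucose (YHR174W, chromosome VIII, 451327 to 452640), had 558, 644, 1184, 2121 and 1318 CPM in high and 829, 770.2, 1476, 2089 and 1230.5 CPM in low (log2 1.15, SE 0.13, adjusted p = 0.0201). Both 2_2709 libraries were the highest of their fraction. TDH2 and TDH3 are near-identical in sequence, and TDH1 is less close to them. The split of reads is thus uncertain, mainly between TDH2 and TDH3.

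ADH1 was higher in 2_2709 by 0.89 (SE 0.09, adjusted p = 0.0127), CDC19, pyruvate kinase, by 0.79 (SE 0.11, adjusted p = 0.0478), and PDC1, pyruvate decarboxylase, by 0.72 (SE 0.10, adjusted p = 0.0478). PDC1 had 5464, 4052, 6738, 9195 and 5134 CPM in high and 4467, 4078, 5444, 7029 and 4159.8 CPM in low. HXT1, a low-affinity glucose transporter, was lower, with 34.9, 78.5, 56.7, 25.5 and 72.5 CPM in high and 156, 259.9, 204, 100.5 and 285 CPM in low (log2 -1.16, SE 0.16, adjusted p = 0.0478). HXT1 was also called higher in _2909 (log2 0.72, adjusted p = 0.0369). Low exceeded high in every pair (log2 1.91, adjusted p = 0.0104 in the fit without code). Without 2_2609 none of the 6 genes was called, with 121 of all genes at an unadjusted p below 0.05, and the adjusted p of TDH2 was 0.115. Under 9 alternatives, CDC19 and HXT1 were called in only 2 each and PDC1 in 3. TDH2 and ADH1 were called in 7 each and ENO2 in 6. In all, 6 of the 25 genes of this list, 24.0%, were called for code, against 0.962% of kept genes. The share is not particular to 2_2709. TDH2, ENO2, CDC19 and PDC1 had their largest deviation there, but ADH1 had it in 2_2609 and PCK1 in _2909. The libraries of 1_2709 were the next highest in both fractions for TDH2, ADH1 and PDC1. For ENO2 this held in low only, and for CDC19 in neither fraction. The name ending was called for TDH2 (adjusted p = 0.0496) and ENO2 (0.0409), but not for ADH1, PDC1 and CDC19.

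In 1_2709, whose low library stood apart, 0% of genes were called higher and 0% lower by edgeR, and 340 had an unadjusted p below 0.05. The name ending (_2609, _2709 or _2909), put in place of the code, was called for 59 genes (0.926%), of which 58 were kept. Without _2909 the ending was called for 0 genes by edgeR, with 312 at an unadjusted p below 0.05. High and low libraries that shared an ending but not the code had r of -0.25 to 0.05 in 4 pairings. Those of the _2609 codes gave -0.25 and -0.12, below the matched r of 0.395 and 0.616. Those of the _2709 codes gave -0.09 and 0.05, against matched r of 0.107 for 1_2709 and 0.032 for 2_2709. The high library of 2_2709 thus had a slightly higher r with the low library of 1_2709 than with its own. Both high libraries of the _2709 codes had their highest r with the low library of 2_2609, another ending (0.188 for 1_2709 and 0.107 for 2_2709).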

How the data were processed

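RNA of 5 high and 5 low sorted fractions was sequenced. The authors filtered the reads, mapped them with HISAT2 (version not given in the sources used here) to the Ensembl yeast genome and deposited raw counts per gene. The counting tool and its strand setting are not stated. The authors also deposited FPKM values, used here only as an alternative. Of 6048 gene identifiers shared with the R64 annotation, 6036 had the same coordinates, and R64 sequence was used. Columns were matched to samples by title. Every column of per-sample values was used.

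Counts were normalized by TMM and filtered by filterByExpr, leaving 6374 genes, and CPM were computed from them. Deviations used log2 CPM with a prior count of 2. The model of fraction and code was fitted with edgeR 4.0.16 in R 4.3.3 and left 4 residual degrees of freedom. Quasi-likelihood tests of code, of each code against the mean of the other 4, and of the name ending used Benjamini-Hochberg adjustment over all genes tested within each test, with a threshold of 0.05. SE are on the log2 scale. Nothing in the labels ties libraries to cultures. In the model of fraction and code, p-values measure against the disagreement of high and low libraries within codes. They do not measure how cultures vary, and each code's contrast rests on a single high and a single low library of that code. The fits were tested on simulated data with known changes, where the test of code missed most of the smaller changes, so a gene that was not called may still differ.

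Named genes were, for each code, up to 3 kept genes with the highest and 3 with the lowest shared deviation among those called. They also included the 10 lowest p for code, called members of the lists described, and the strain constructs. The shared deviation is the smaller in size of the matched deviations where both have the same sign. Lists were described where at least 20% of kept members, and at least 3, were called for code. They were also described where the median over genes of the mean matched deviation reached 0.5 in size in a code. The list of stress response and trehalose passed neither limit and was added. Other genes were named as pathway members or after their values were seen. The members and the 30 lists were chosen with earlier results of these data known. Alternatives were 3 other normalizations, other filters, DESeq2 1.42.0, limma 3.58.1 on counts and on FPKM, and each code left out. Shared codes served as pairs for description, and r was above 0.1 in 4 of 5. The comparison of low with high used no block, because the paper's methods name none. Its count with the code as a block is given below. Reads were not tagged per molecule, so read numbers overstate how many molecules were sampled.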

Additional observations from a re-analysis of the deposited data

Results flagged for a closer look

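In 84 checks of the named genes and the described lists, 7 had 1 library far from the other 4 of its fraction, measured as its gap to the nearest library divided by the whole range, with a limit of 0.71. Chance passes this limit in about 1 in 20 checks of items picked without regard to their values. These genes and lists were picked by their values in the same libraries, most of them in _2909, so the rate does not apply to them. That all 7 were libraries of _2909 is a description only. In the high fraction the library of _2909 stood apart for DUR3 (0.902), LYS2 (0.8), SNZ1 (0.78), LEU1 (0.771) and MET17 (0.722). The median deviation of the a-cell mating genes in the same library gave 0.721. In the low fraction the library of _2909 stood apart for BAT1 (0.722).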

How the results depend on the processing

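The mean r of matched libraries was 0.310 and ranged from 0.214 to 0.392 when single codes were left out, from 0.223 to 0.423 with minimum levels of 10 and 100 CPM, and stayed within 0.01 of it under the other normalizations, the prior count of 0.5 and log2 FPKM. Genes called for code numbered 42 and ranged from 0 to 80 when single codes were left out. They were 22 without both 2_2609 and 1_2709, 93 among genes of at least 30 CPM, 475 with DESeq2, 260 with limma-voom and 0 with limma on log2 FPKM (631 at an unadjusted p below 0.05). For the name ending the 59 calls ranged from 0 to 29 when single codes were left out and were 221 with DESeq2 and 16 with limma on log2 FPKM.

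For _2909 the 104 calls ranged from 54 to 135 when single codes were left out, and were 58 without both 2_2609 and 1_2709 (an alternative added after the data were seen, as for each code's contrast and the named genes) and 159 among genes of at least 30 CPM. For 2_2609 the 10 calls ranged from 0 to 18 when single codes were left out and were 2 with library totals and 66 among genes of at least 30 CPM. For 2_2709 the 6 calls ranged from 0 to 4, and were 0 without both 2_2609 and 1_2709 (326 at an unadjusted p below 0.05), 3 with upper-quartile factors and 3 with no filter. For 1_2609 the single call ranged from 0 to 1 and was 0 with library totals (650 at an unadjusted p below 0.05). For 1_2709 it ranged from 0 to 1. Fewer codes leave fewer residual degrees of freedom, and the cause of the other shifts was not tested.

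Low minus high was called for 226 genes, and for 248 with the code as a replicate block, of which 171 were in both. It was called for 350 with no filter, 138 among genes of at least 30 CPM, 391 with DESeq2 and 56 without both 2_2609 and 1_2709, and for 87 to 125 when single codes were left out.

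The 37 gene contrasts named gave 324 values under alternatives, none of which reversed, 55 lost and 6 gained significance. How much of the spread between libraries is counting error was not tested.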
